A study of Caenorhabditis elegans with 11 samples.

Results

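The 6 genes described here encode chaperones that *C. elegans* makes without stress, or that serve an organelle: *hsp-1* and *hsp-110* of the cytosol, *hsp-3* and *hsp-4* of the endoplasmic reticulum (ER), and *hsp-6* and *hsp-60* of mitochondria. They were taken by name, as 6 of the 46772 genes in the table of read counts, and all 6 passed the filter on low counts, a mean normalised read count above 10 in protein-coding genes. Early embryos of 4 strains were compared: wild-type N2 (WT), *cfp-1(tm6369)*, *set-2(bn129)* and *sin-3(tm1276)*, with 2 libraries for *sin-3* and 3 for each of the others. CFP-1 and SET-2 are subunits of the SET1/COMPASS histone H3 lysine 4 methyltransferase and SIN-3 is the scaffold of a histone deacetylase complex, so the comparisons ask how transcripts differ when each is mutated. Embryos were released from young adults with hypochlorite and frozen, and the sample labels name no other treatment. Each mutant strain carries 1 allele throughout the animal (tm6369 is a deletion predicted to truncate CFP-1), and RNA came from whole embryos, so fewer cells of a type and less transcript per cell cannot be told apart.

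HSP70 proteins bind unfolded stretches of other proteins and release them in a cycle driven by ATP. J-domain proteins speed up the hydrolysis step, and nucleotide exchange factors such as HSP110 restart the cycle. Each compartment has its own HSP70, and mitochondria also hold the barrel-shaped chaperonin HSP60, in which proteins fold in isolation. Transcription of the ER chaperones answers to the unfolded protein response of the ER, that of the mitochondrial ones to a separate mitochondrial response, and several cytosolic chaperones are targets of heat-shock factor HSF-1.

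In the WBcel235 assembly, *hsp-1* (WBGene00002005, the constitutive cytosolic HSP70) lies on chromosome IV from 17278959 to 17281330 on the forward strand. *hsp-110* (WBGene00016250, an HSP110 of the HSP70 superfamily) lies on chromosome III from 8443910 to 8446909 on the reverse strand. The BiP homologs, which are the HSP70 proteins of the ER lumen, are *hsp-3* (WBGene00002007), on chromosome X from 6089028 to 6092124, and *hsp-4* (WBGene00002008), on chromosome II from 7350112 to 7352645, both on the reverse strand. *hsp-6* (WBGene00002010), the mitochondrial HSP70, lies on chromosome V from 4824124 to 4826760 on the reverse strand, and *hsp-60* (WBGene00002025), the mitochondrial chaperonin, on chromosome III from 1619742 to 1625803 on the forward strand. Counts were made over the exons of each gene, and the only annotated gene inside a member was the snoRNA F26D10.24 in *hsp-1*, which held 64 counts over all libraries. Reads of *hsp-3* and *hsp-4*, whose proteins are close homologs, may be divided between the genes with some error, so their sum is also given.

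Library totals lay between 21596949 and 35258557 counts, and each mutated gene had its lowest normalised read counts in the libraries of its own strain, with no overlap with WT. The *set-2* transcript was less reduced in *set-2* replicate 2 (4504) than in replicates 1 (2437) and 3 (2499), beside 7932 to 9720 in WT. The reason for this was not tested. CPM stands for counts per 1000000 scaled counts. By the Spearman correlation of log2 CPM between libraries, *set-2* replicate 2 was the library least like the others of its strain, with a mean of 0.984, where the other libraries had 0.987 to 0.995. Oocyte and maternal markers (13 genes summed) lay between 1214 and 1455 CPM in WT and between 1179 and 1398 CPM in *set-2*, but between 2180 and 2507 CPM in *cfp-1* and between 2470 and 2610 CPM in *sin-3*. Embryonic transcription factor markers (15 genes summed) lay between 653 and 721 CPM in WT and between 599 and 839 CPM in *set-2*, against 465 to 541 CPM in *cfp-1* and 509 to 515 CPM in *sin-3*. Of the other cell types, sperm markers (15 genes summed, 2 of them at 0 in every library) reached 2.47 to 4.92 CPM in WT and under 1 CPM in each mutant library. Yolk markers of the adult intestine stayed at or below 3.22 CPM in every library.

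Per length, *hsp-3* had the highest level of the 6 transcripts in every strain. The level is given as CPM per kilobase of exon. It was 936 ± 63.0 (SD, n = 3) for *hsp-3* in WT, 389 ± 74.95 for *hsp-1*, 247 ± 17.2 for *hsp-4*, 128 ± 47.9 for *hsp-110*, 77.5 ± 4.78 for *hsp-6* and 55.8 ± 8.04 for *hsp-60*. Among the genes tested, the WT level of *hsp-3* was at percentile 99.4 and that of *hsp-60* at percentile 72.6. The order of the first 3 was the same in all 4 strains, and *hsp-60* was the lowest in all 4. *hsp-110* was above *hsp-6* in WT and *sin-3*, while *hsp-6* was above *hsp-110* in *cfp-1* and *set-2*, where the libraries of both genes overlapped. In WT this pair was separated only barely, by a lowest *hsp-110* level of 80.8 and a highest *hsp-6* level of 80.6. The libraries of *hsp-1* and *hsp-4* also overlapped in *set-2*, and no other neighbours in the order did so in any strain. The order was the same with DESeq2's size factors and with coding length in place of exon length.

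**Figure D1:**
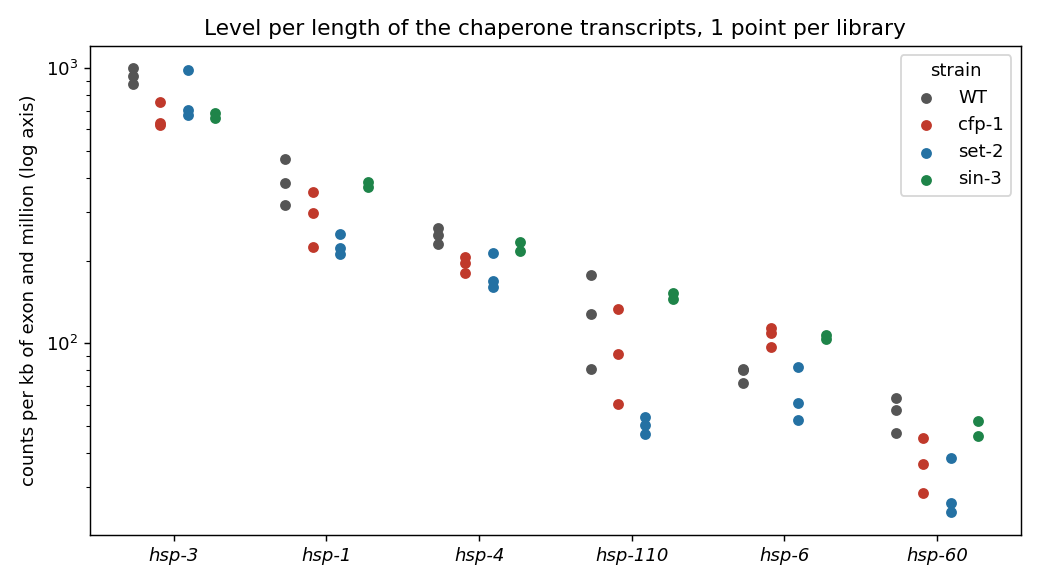
CPM per kilobase of exon (log axis) of the 6 chaperone transcripts, 1 point per library, coloured by strain. *hsp-3* lies above the other transcripts in every strain and *hsp-60* has the lowest mean in each, while *hsp-6* and *hsp-110* change places between strains.

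The members differed in how much they varied between libraries. Normalised read counts of *hsp-3* spanned 1.60-fold over the 11 libraries and those of *hsp-4* 1.64-fold, which put the log2 range of each in the lower part of all genes tested, at percentiles 23.3 and 25.8. *hsp-6* spanned 2.15-fold, *hsp-1* 2.21-fold and *hsp-60* 2.59-fold. *hsp-110* spanned 3.78-fold, at percentile 80.2, and had the largest coefficient of variation of the 6 among WT (37.3%) and *cfp-1* (38.7%) libraries. Among *set-2* libraries it had the smallest, 7.2%, where *hsp-60* had 25.8%, and among *sin-3* libraries it had 3.01%, below *hsp-60* (8.85%) and *hsp-4* (5.58%). Of the 6, 4 had their highest count in WT replicate 1 (*hsp-1*, *hsp-4*, *hsp-60* and *hsp-110*), and 4 had their lowest in *set-2* replicate 1 (*hsp-1*, *hsp-4*, *hsp-6* and *hsp-110*).

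*hsp-1*, whose product is the main HSP70 of unstressed cells, had normalised read counts of 26879, 18276 and 22018 in WT. The *set-2* libraries had 12166, 14335 and 12835. The *cfp-1* libraries had 12924, 20411 and 17070, and the *sin-3* libraries 21319 and 22116. All *set-2* libraries were thus below all WT libraries, *cfp-1* libraries overlapped WT, and *sin-3* libraries lay inside the WT range. The log2 fold change was -0.77 in *set-2* (SE 0.17, adjusted p = 0.012 by edgeR's quasi-likelihood test, which is also used below), or 0.586 of the WT level. It was -0.41 in *cfp-1* (SE 0.17, adjusted p = 0.0939). Without *cfp-1* replicate 2 that value was -0.58 and was called (adjusted p = 0.0342), and without WT replicate 1 or *cfp-1* replicate 1 it was -0.26 or -0.25 (adjusted p = 0.31 and 0.279). The log2 fold change of *hsp-1* was -0.044 in *sin-3* (SE 0.19, adjusted p = 0.888).

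*hsp-110* encodes the cytosolic HSP110, an exchange factor for HSP70. Its normalised read counts were 13251, 6061 and 9597 in WT and 3508, 4053 and 3794 in *set-2*. In *cfp-1* they were 4523, 10046 and 6892, and in *sin-3* 11393 and 10918. The *set-2* libraries were close together and below every other library, whereas *cfp-1* libraries were spread as widely as WT. With a log2 fold change of -1.35 (SE 0.28, adjusted p = 0.00997), or 0.393 of the WT level, *hsp-110* in *set-2* was the largest change of a member in any comparison with WT. The changes in *cfp-1*, -0.43 (SE 0.28, adjusted p = 0.282), and in *sin-3*, 0.21 (SE 0.31, adjusted p = 0.651), did not pass the threshold.

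*hsp-3*, the more abundant BiP transcript, had normalised read counts of 69119, 64696 and 74014 in WT. They were 46952, 55984 and 46149 in *cfp-1* and 50731 and 48820 in *sin-3*. In *set-2* they were 50144, 72965 and 52106. Every *cfp-1* and *sin-3* library lay below the WT libraries, and in *set-2* replicate 2 alone lay in the WT range. *hsp-3* was lower in *cfp-1* by a log2 fold change of -0.48 (SE 0.14, adjusted p = 0.0298) and in *sin-3* by -0.48 (SE 0.16, adjusted p = 0.0482), that is at 0.717 and 0.719 of WT. In *set-2* the change was -0.25 (SE 0.14, adjusted p = 0.254), and without *set-2* replicate 2 it was -0.44 (adjusted p = 0.0231).

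*hsp-4*, the BiP gene known for its strong induction when proteins misfold in the ER, had normalised read counts of 16327, 14195 and 15318 in WT. They were 9959, 13159 and 10415 in *set-2* and 12792, 12168 and 11136 in *cfp-1*, all below WT. In *sin-3* they were 14530 and 13428, overlapping WT. The log2 fold change of *hsp-4* was -0.45 in *set-2* (SE 0.12, adjusted p = 0.0265), or 0.731 of WT. In *cfp-1* it was -0.34 (SE 0.12, adjusted p = 0.0521), just outside the threshold. It passed with DESeq2 (adjusted p = 0.0396), with edgeR's own filter on low counts (0.0418), with no filter (0.039) and without *set-2* replicate 2. It also passed with scaling factors from all listed genes (0.0293), the setting used first and replaced after results were seen. In *sin-3* it was -0.13 (SE 0.13, adjusted p = 0.508). The sum of both BiP genes, counted as 1 gene, lay between 78890 and 89332 in WT, 57285 and 68153 in *cfp-1*, 62248 and 65261 in *sin-3*, and 60103 and 86124 in *set-2*. Its log2 fold change was -0.45 in *cfp-1* (adjusted p = 0.0311). The sum did not pass the threshold in *set-2* (-0.28, adjusted p = 0.177), where *hsp-4* alone was called, or in *sin-3* (-0.41, adjusted p = 0.0722), where *hsp-3* alone was called.

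*hsp-6*, which encodes the HSP70 that pulls imported proteins into mitochondria and folds them, went the other way. Its normalised read counts were 5507, 4915 and 5450 in WT, 6645, 7446 and 7766 in *cfp-1*, and 7335 and 7067 in *sin-3*, so that all libraries of both mutants lay above WT. In *set-2* they were 3611, 5617 and 4161, with replicate 2 above the highest WT library and the other 2 below the lowest. The log2 fold change was 0.46 in *cfp-1* (SE 0.14, adjusted p = 0.0342), 1.38 times the WT level. It was 0.44 in *sin-3* (SE 0.16, adjusted p = 0.0571), which did not pass the threshold. The value in *set-2* was -0.25 (SE 0.14, adjusted p = 0.254), and without *set-2* replicate 2 it was -0.44 (adjusted p = 0.0185). With factors from all listed genes, *hsp-6* in *cfp-1* had an adjusted p of 0.0516.

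*hsp-60*, the chaperonin subunit, had normalised read counts of 3716, 2778 and 3366 in WT. They were 1544, 2263 and 1433 in *set-2* and 1686, 2673 and 2155 in *cfp-1*. In *sin-3* they were 2715 and 3077. All *set-2* and *cfp-1* libraries lay below WT, and the *sin-3* libraries overlapped it. The log2 fold change was -0.91 in *set-2* (SE 0.20, adjusted p = 0.011), or 0.531 of WT, and -0.60 in *cfp-1* (SE 0.20, adjusted p = 0.0434), or 0.660 of WT. In *sin-3* it was -0.18 (SE 0.22, adjusted p = 0.575).

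**Figure D2:**
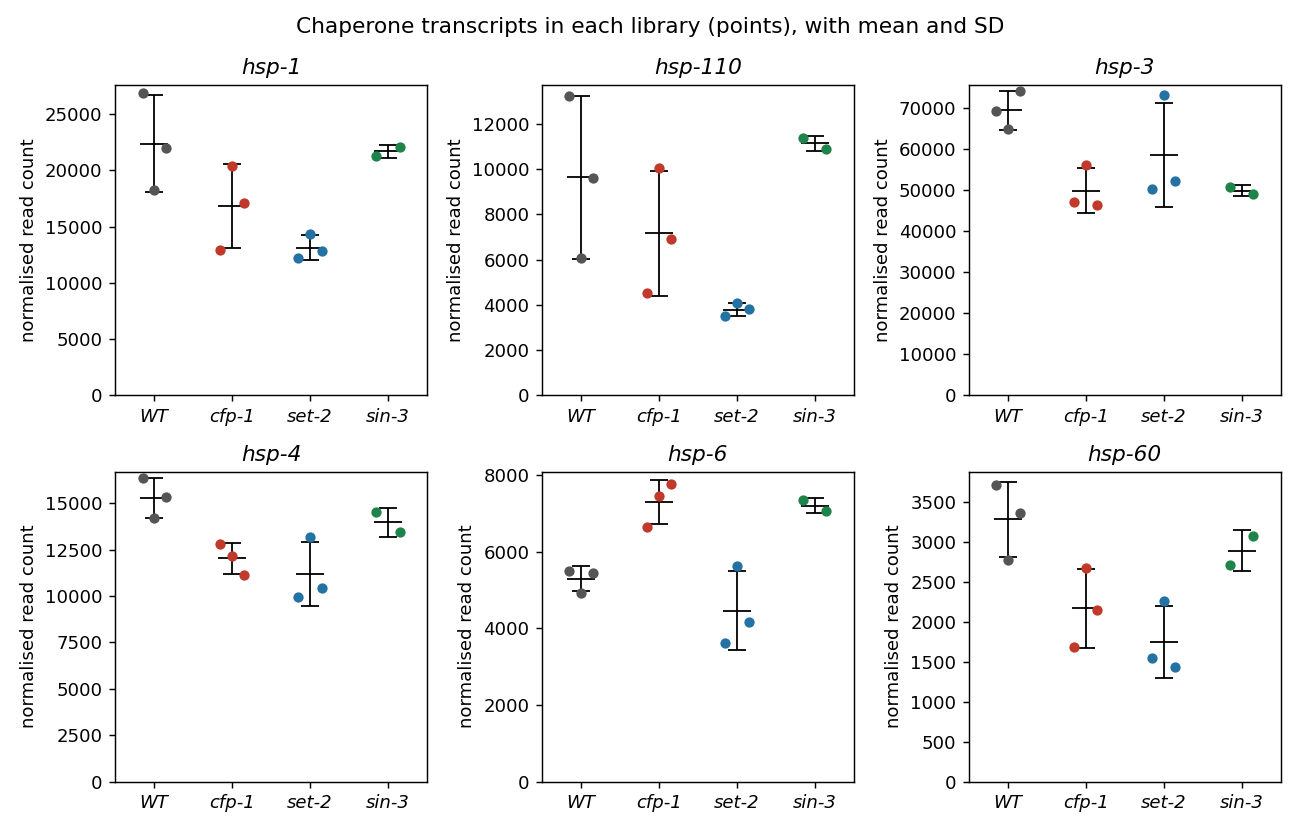
Normalised read counts of each chaperone transcript by strain, with every library as a point and the mean with its SD as a black bar. In *set-2* the *hsp-110* libraries sit between 3508 and 4053, below every other library, and the *hsp-6* libraries of *cfp-1* and *sin-3* sit above those of WT.

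In *cfp-1* embryos, 3 of the 6 members passed the test against WT: *hsp-3* and *hsp-60* were lower and *hsp-6* higher. Of all genes tested 24% were called, 11.4% lower and 12.7% higher. The members' median log2 fold change was -0.42, beside -0.0018 over all genes tested. The libraries of 4 of the 6 members did not overlap those of WT, as was so for 40.3% of all genes tested. The count of members called was 0 without WT replicate 1, without WT replicate 3 or without *cfp-1* replicate 3. It was 1 without *cfp-1* replicate 1, *sin-3* replicate 1 or *sin-3* replicate 2. Of the 11547 genes tested, 1821 were called without WT replicate 1, 1869 without WT replicate 3 and 1533 without *cfp-1* replicate 3. Without *cfp-1* replicate 1 it was 2553, beside 2777 with all libraries. The oocyte and embryonic markers given above moved with this comparison. With their difference as a covariate, whose values in *cfp-1* and *sin-3* did not overlap those in WT, no member was called (log2 fold change of *hsp-3* -0.42, of *hsp-6* 0.37 and of *hsp-60* -0.80). In that fit 268 of the 11547 genes tested were called in *cfp-1* against WT, beside 2777 without the covariate.

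In *set-2* embryos, 4 of the 6 members passed the test against WT, all lower: *hsp-1*, *hsp-4*, *hsp-60* and *hsp-110*. Of all genes tested 14.4% were called, 7.04% lower and 7.40% higher. For the same 4 members the libraries did not overlap those of WT, which held for 35.2% of all genes tested. The members' median log2 fold change was -0.61, beside -0.021 over all genes tested. The marker covariate left the same 4 members called, with log2 fold changes between -1.37 and -0.45. Its values were alike in the 2 strains, -1.06 to -0.64 in WT and -1.08 to -0.67 in *set-2*. The covariate could therefore move this comparison little, and the kept calls are no test of embryo age. With it 2336 of the 11547 genes tested were called, beside 1668 without it. *hsp-110* kept its call in all 11 refits that each lacked 1 library. *hsp-1* and *hsp-60* lost it only without *set-2* replicate 1 (adjusted p = 0.0515 and 0.0505), where *hsp-110* was the 1 member called. *hsp-4* lost its call in 5 of the 11 refits, and also with upper-quartile factors (adjusted p = 0.11), with a minimum of 10 counts in each library (0.0612) and with only WT and *set-2* fitted (0.0767). All 6 members were called lower without *set-2* replicate 2, the library that stood apart. Of the 11547 genes tested, 1734 were called in that refit and 864 without *set-2* replicate 1, beside 1668 with all libraries. Summed muscle markers lay between 345 and 784 CPM in *set-2* and between 286 and 496 CPM in WT, and summed collagen genes between 289.6 and 745 CPM against 148 to 349 CPM. Their part in the members' values was not tested.

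The inducible heat-shock genes, whose products appear on stress, were also lower in *set-2* than in WT, but WT itself held many of their transcripts. Normalised read counts in WT were 10574 to 14489 for *hsp-16.2*, 12878 to 15853 for *hsp-16.41* and 2786 to 4168 for *hsp-70*. Those of *hsp-16.1* and *hsp-16.48* were at or below 1.07. WT was thus not a reference without heat-shock transcripts. Summed over 7 genes, the inducible genes reached 1561, 1154 and 1204 CPM in WT and 348, 13.2 and 366 CPM in *set-2*. In *cfp-1* they reached 844, 1859 and 1218 CPM, and in *sin-3* 1692 and 1271 CPM. Their lowest library, *set-2* replicate 2, was the *set-2* library with the highest counts of all 6 members. Within *cfp-1* the library order of this sum was that of *hsp-110*, *hsp-1* and the mitochondrial *hsp-60*. The part of the inducible genes in the members' values was not tested.

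In *sin-3* embryos, only *hsp-3* of the 6 members was called against WT, where 25.2% of all genes tested were called, 12.6% in each direction. The libraries of *hsp-3* and *hsp-6* did not overlap those of WT, as was so for 60.8% of all genes tested. The members' median log2 fold change was -0.09, beside -0.03 over all genes tested. No member was called without any 1 of WT replicates 1, 2 and 3, *sin-3* replicates 1 and 2, *cfp-1* replicate 3 or *set-2* replicate 3. Without *set-2* replicate 1 or 2, both *hsp-3* and *hsp-6* were called, and without *cfp-1* replicate 1 only *hsp-6*. With 2 libraries the *sin-3* mean is the least certain of the 4.

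**Figure D3:**
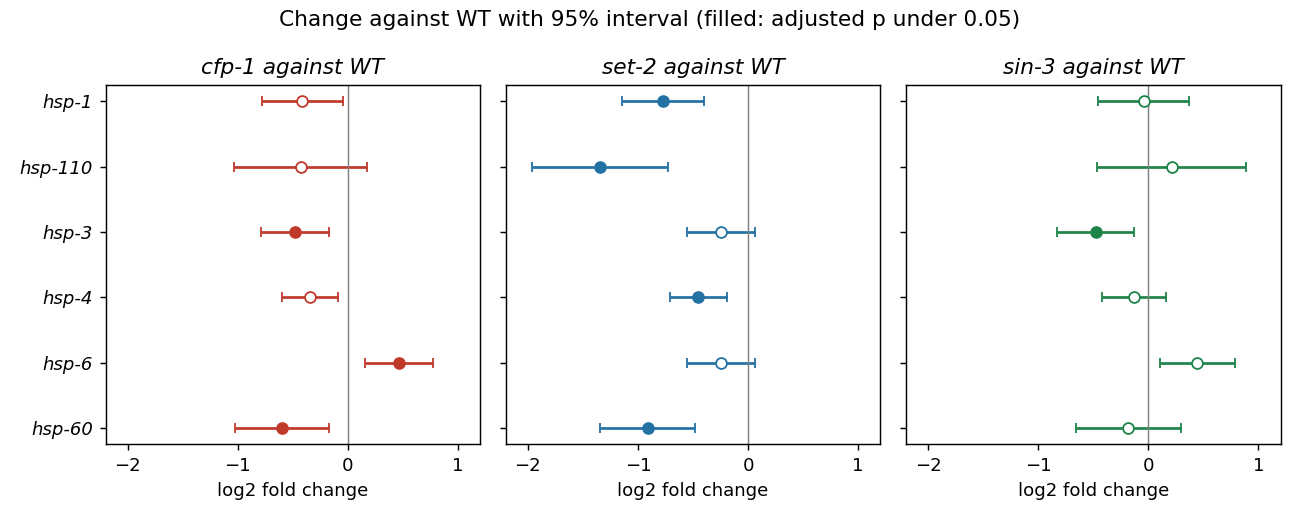
Log2 fold change of each chaperone transcript against WT with its 95% interval, for each mutant strain. Filled points passed an adjusted p of 0.05: 3 in *cfp-1*, 4 in *set-2*, all lower, and 1 in *sin-3*.

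The comparisons with WT share the WT libraries, so the mutants were also compared with each other. Between *cfp-1* and *set-2*, 22.1% of all genes tested were called and 12.6% of all were higher in *cfp-1*, and *hsp-6* and *hsp-110* were called higher in *cfp-1*. *hsp-6* differed by 0.71 on the log2 scale (SE 0.14, adjusted p = 0.00707) and kept its call with each library left out. *hsp-110* differed by 0.92 (SE 0.28, adjusted p = 0.0372), and its call held in 3 of 11 such refits: without WT replicate 1, WT replicate 2 or *cfp-1* replicate 1. In the other 8 its adjusted p was up to 0.131, reached without *cfp-1* replicate 2, where it differed by 0.59. Without *cfp-1* replicate 1 the count of members called was 3, with *hsp-1* added.

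Between *set-2* and *sin-3*, 40.7% of all genes tested were called and 20.7% were lower in *set-2*. Of the members, *hsp-1* (log2 difference -0.73), *hsp-6* (-0.69), *hsp-60* (-0.73) and *hsp-110* (-1.56) were lower in *set-2* (adjusted p between 0.00285 and 0.0194). *hsp-3* and *hsp-4* differed by 0.23 (adjusted p = 0.26) and -0.32 (adjusted p = 0.0665). Without *sin-3* replicate 2, where 1 *sin-3* library is left and is assumed to vary like the others, 2 members were called, *hsp-6* and *hsp-110*. With the marker covariate no member was called in either of these comparisons. *hsp-110* then differed by 0.36 between *cfp-1* and *set-2* (adjusted p = 0.954) and by -0.84 between *set-2* and *sin-3* (adjusted p = 0.874). The covariate lay between -2.41 and -1.46 in *cfp-1* and between -2.51 and -2.29 in *sin-3*. In *set-2* it lay between -1.08 and -0.67, so strain and covariate cannot be fully told apart. The number of all genes called with the covariate is not given for these comparisons, so the lost calls are not particular to the members.

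Between *cfp-1* and *sin-3*, 11.6% of all genes tested were called and 0 of the 6 members, also 0 at an unadjusted p of 0.05 and 0 by DESeq2. With 6 members, 0 calls cannot be told apart from that share. The values of 5 of the 6 members were lower in *cfp-1*. For 4 of them (*hsp-1*, *hsp-4*, *hsp-60* and *hsp-110*) all *cfp-1* libraries lay below both *sin-3* libraries. The share of all genes for which libraries did not overlap is not given for this comparison. The members' median log2 difference was -0.29, beside 0.035 over all genes tested. *hsp-3* differed by -0.0023 on the log2 scale with a 95% interval from -0.35 to 0.34, and *hsp-6* by 0.017 with an interval from -0.33 to 0.36. *hsp-110* differed by -0.64 with an interval from -1.31 to 0.029, the widest of the 6.

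For the mitochondrial pair, the ratio of *hsp-6* to *hsp-60* counts per length, in which library scaling cancels, was 1.28, 1.53 and 1.40 in WT. The *cfp-1* libraries had ratios of 3.40, 2.4 and 3.11, the *set-2* libraries 2.02, 2.14 and 2.50, and the *sin-3* libraries 2.33 and 1.98. Every mutant library lay above the WT range, but no test of these ratios could pass 0.05 with so few libraries. On the log2 scale the mean ratio was higher than in WT, by 0.62 in *sin-3*, 0.66 in *set-2* and 1.07 in *cfp-1*. Each exact two-sided permutation test gave p = 0.1, the smallest that 3 libraries against 3, or 2 against 3, can give here (0.15 after adjustment over the 9 ratio tests). In *cfp-1* the higher ratio went with more *hsp-6* and less *hsp-60*, and in *set-2* with less *hsp-60*, by the tests above.

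In the ER, the ratio of *hsp-4* to *hsp-3* was 0.282, 0.262 and 0.247 in WT. It was 0.342 and 0.329 in *sin-3*, above WT, and 0.237, 0.215 and 0.239 in *set-2*, below WT. In *cfp-1* it was 0.325, 0.260 and 0.288, overlapping WT. In the cytosol, the ratio of *hsp-110* to *hsp-1* was 0.378, 0.254 and 0.334 in WT and 0.221, 0.217 and 0.227 in *set-2*. The *set-2* libraries were all below WT, and their ratio differed by -0.52 on the log2 scale. It was 0.269, 0.378 and 0.310 in *cfp-1*, overlapping WT, and 0.410 and 0.379 in *sin-3*, where the lower library was just above the highest of WT. The exact permutation tests of these ratios gave p between 0.1 and 0.9, and none can go below 0.1.

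**Figure D4:**
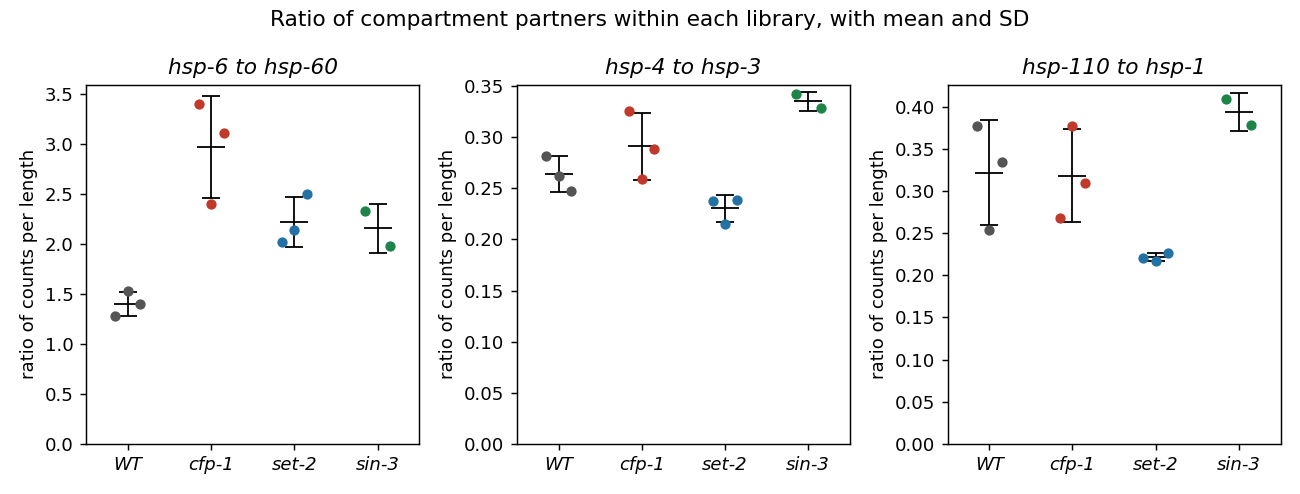
Ratios of counts per length within each library for the mitochondrial, ER and cytosolic pairs, with each library as a point and the mean with its SD as a black bar. The *hsp-6* to *hsp-60* ratio lies between 1.28 and 1.53 in WT and between 1.98 and 3.40 in the mutants.

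Among genes that work with the members, cytosolic HSP70 and HSP90 partners had 1 gene higher and 2 lower of 17 tested in *cfp-1*, 1 higher in *sin-3* and 4 lower in *set-2*. These and the list counts that follow stand beside the 24% of all genes called in *cfp-1*, 14.4% in *set-2* and 25.2% called in *sin-3*, and the share of these partners called in *cfp-1* and *sin-3* was below that of all genes. *dnj-13*, a J-domain partner of HSP70, was lower in *set-2* (log2 fold change -1.04, adjusted p = 0.00656) and in *cfp-1* (-0.81, adjusted p = 0.0123). *sti-1*, which links HSP70 to HSP90, was lower in *set-2* (-0.68, adjusted p = 0.00173). *hip-1*, an HSP70-interacting protein, was higher in *cfp-1* (0.92, adjusted p = 0.000931) and in *sin-3* (0.53, adjusted p = 0.0223). The list's median log2 fold change was -0.19 in *set-2*, -0.11 in *sin-3* and -0.08 in *cfp-1*.

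The CCT chaperonin, the cytosolic relative of HSP60 that folds actin and tubulin, and its helper prefoldin had 14 genes tested. In *cfp-1* 1 was higher and 3 lower, in *set-2* 1 higher and 4 lower, and in *sin-3* 1 higher and 2 lower. *cct-7*, a CCT subunit, was lower in *set-2* (-1.0, adjusted p = 0.0023) and *cfp-1* (-0.79, adjusted p = 0.00402), and *cct-8*, another subunit, was lower in *set-2* (-0.63, adjusted p = 0.0323). The prefoldin subunit *pfd-6* was higher in *cfp-1* (0.78, adjusted p = 0.00794), and *pfd-1* (-0.58) and *pfd-5* (-0.52) were lower in *sin-3* (adjusted p = 0.0166 and 0.038).

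ER folding and quality control genes had 1 higher and 3 lower of 17 in *cfp-1* and 3 higher and 1 lower in *sin-3*. In *set-2* none was called, with 4 at an unadjusted p under 0.05 and 1 called by DESeq2. *crt-1*, the calcium-binding chaperone calreticulin, was lower in *cfp-1* (-0.35, adjusted p = 0.0203) and T14G8.3 likewise (-0.44, adjusted p = 0.0136). In *sin-3* the ubiquitin ligase gene *sel-11* (0.63, adjusted p = 0.00536) and the disulfide isomerase gene *pdi-3* (0.39, adjusted p = 0.0247) were higher. Of 5 regulators of the ER unfolded protein response, *xbp-1*, its transcription factor, was lower in all 3 mutants, with -0.66 in *cfp-1* (adjusted p = 0.00326), -0.45 in *set-2* (adjusted p = 0.031) and also -0.45 in *sin-3* (adjusted p = 0.0339). *pek-1*, a kinase that senses ER stress, was lower in *cfp-1* (-0.47, adjusted p = 0.0173) and *set-2* (-0.86, adjusted p = 0.00156), and *ire-1*, the other sensor kinase, was higher in *sin-3* (0.62, adjusted p = 0.00805).

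Mitochondrial chaperones, proteases and import genes had 4 higher of 18 in *cfp-1*, 4 higher and 2 lower in *sin-3*, and 1 lower in *set-2*. C34C12.8 (0.74, adjusted p = 0.00172) and the import channel gene *timm-17B.1* (0.41, adjusted p = 0.0198) were higher in *cfp-1*. In *sin-3* the inner membrane protease gene *ymel-1* was higher (0.63, adjusted p = 0.00248) and the matrix protease gene *clpp-1* lower (-0.72, adjusted p = 0.0244). The list's median was 0.19 in *cfp-1* and 0.14 in *sin-3*. *atfs-1*, the transcription factor of the mitochondrial unfolded protein response, was higher in *cfp-1* (0.34, adjusted p = 0.022) and *sin-3* (0.39, adjusted p = 0.0192), and *haf-1*, a mitochondrial peptide transporter, was lower in both (-0.52 and -0.46, adjusted p = 0.0142 and 0.0404). None of these 4 regulators was called in *set-2*, with 0 at an unadjusted p under 0.05 and 0 by DESeq2.

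Of the 4 heat-shock factor regulators, *hsf-1* itself was higher in *sin-3* (0.42, adjusted p = 0.0123). None was called in *cfp-1* (0 at an unadjusted p under 0.05 and 0 by DESeq2) or in *set-2* (2 at an unadjusted p under 0.05 and 0 by DESeq2). Of 5 inducible heat-shock genes tested, the HSP70 gene *hsp-70* (-3.21, adjusted p = 0.0108) and the small heat-shock gene *hsp-16.2* (-2.44, adjusted p = 0.0423) were lower in *set-2*. None was called in *cfp-1* or *sin-3*, with 0 at an unadjusted p under 0.05 and 0 by DESeq2 in each.

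**Figure D5:**
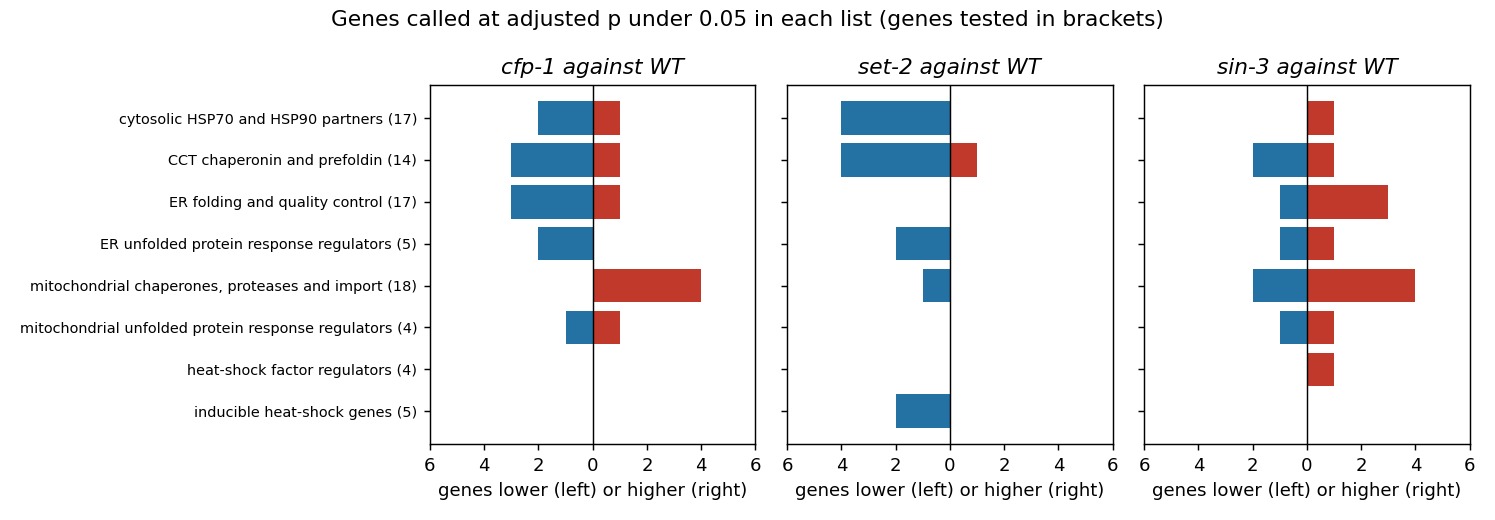
Number of genes called lower (blue, left) and higher (red, right) against WT in each of 8 lists of related genes, with the genes tested in brackets. In *set-2* all 4 called cytosolic partners were lower, and the mitochondrial list had 4 genes higher in both *cfp-1* and *sin-3*.

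The members lie on 5 chromosomes, and *hsp-60* and *hsp-110* share chromosome III. *hsp-60* has a neighbour on the opposite strand, Y22D7AL.10 (chromosome III from 1617151 to 1618929), and the 2 genes point away from each other with 812 bases between them. Y22D7AL.10 was lower in *set-2* (-0.30, adjusted p = 0.047) and higher in *sin-3* (0.41, adjusted p = 0.0123), where *hsp-60* had -0.18. It also belongs to the list of mitochondrial chaperones, proteases and import genes, and both calls are already counted there. *nra-1* on the opposite strand ends 124 bases from *hsp-1* and was higher in *cfp-1* (0.56, adjusted p = 0.0122) and *sin-3* (0.50, adjusted p = 0.0299), where *hsp-1* had -0.41 and -0.044. The neighbour on the other side, *clec-196* on the same strand as *hsp-1*, was lower in both. It had -0.43 in *cfp-1* (adjusted p = 0.0473) and -0.72 in *sin-3* (adjusted p = 0.0086).

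The genes most like each member were sought by the root mean square difference of centred log2 CPM over the 11 libraries. For *hsp-1* and for *hsp-60* the closest gene was the same, *lin-13*, at 0.10 and 0.12 log2 units, where the median over all other genes was 0.49 and 0.55. The second gene for *hsp-60* was *cct-7* (0.13). *hsp-3* had *igcm-4* as the closest gene (0.0783) and the disulfide isomerase gene *pdi-2* as the third (0.0856). *hsp-4* was closest to *gcc-1* (0.0715), *hsp-6* to F58D5.5 (0.0827) and *hsp-110* to F01G4.4 (0.19). Among the members themselves, *hsp-1* and *hsp-60* were the most alike (0.14) and *hsp-3* and *hsp-110* the least (0.68). These distances are descriptions over libraries that share strain and scaling.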

How the data were processed

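RNA-seq was made from polyadenylated RNA of early embryos with a kit that keeps the strand, and the strand setting of the counting is not given in the sources used here. The authors aligned reads with STAR 2.4.1d to WS254, filtered them with SAMtools 0.1.19, counted them per gene with HTSeq 0.7.2 and deposited the raw counts; their deposited tables of DESeq2 log2 fold changes and p-values were not used. Libraries were grouped by the genotype label and numbered by the replicate label. Protein-coding genes with a mean normalised count above 10 (11547 genes) were tested with edgeR 4.0.16 in R 4.3.3 by the quasi-likelihood test, 1 mean per strain in 1 model of 11 libraries, with TMM factors from the tested genes (0.940 to 1.10) and Benjamini-Hochberg adjustment, at 0.05. The standard error is the log2 fold change divided by the root of F. TMM factors were first computed from all listed genes; after results were seen this became an alternative. Other alternatives used DESeq2 1.42.0, other factors, filters and covariates, blocks and left-out libraries. On simulated data for *cfp-1* against WT, 111 of 200 genes changed by 1 log2 unit were recovered (55.5%) among 11547, with 8 false calls. The study states independent biological replicates, and no libraries of a strain were duplicates, since the chi-square per gene was at least 9.47. Gene positions are from Ensembl release 115 (WBcel235), used through gene IDs. Genes named are the members and the 2 called genes with the largest change in each list and mutant. Of the 3 genes most like each member, some are given. Those examples, and *nra-1*, *clec-196* and Y22D7AL.10 as neighbours, were chosen with values seen. The members, lists and tests were chosen with earlier results of these data known.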

Additional observations from a re-analysis of the deposited data

Results flagged for a closer look

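The change against WT differed between 2 mutants, by the direct quasi-likelihood test in edgeR with Benjamini-Hochberg adjustment, in 6 cases. *hsp-6* had a log2 fold change of 0.46 in *cfp-1* and -0.25 in *set-2*, a difference of 0.71 (adjusted p = 0.00707). *hsp-110* had -0.43 in *cfp-1* and -1.35 in *set-2*, a difference of 0.92 (adjusted p = 0.0372). The changes in *set-2* and *sin-3* differed by -0.73 for *hsp-1* (adjusted p = 0.00989), -0.69 for *hsp-6* (adjusted p = 0.00569), -0.73 for *hsp-60* (adjusted p = 0.0194) and -1.56 for *hsp-110* (adjusted p = 0.00285). None of the 6 kept its call with the marker covariate or with a block by title number. The number of all genes called in those fits is not given for comparisons between mutants. Between *cfp-1* and *set-2*, *hsp-110* kept its call in 3 of 11 refits that each lacked 1 library. With 2 or 3 libraries per strain, no strain had enough for a test of single outlying libraries.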

How the results depend on the processing

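The number of members called moved as follows from 3 in *cfp-1* against WT, 4 in *set-2* against WT, 1 in *sin-3* against WT, 2 in *cfp-1* against *set-2*, 0 in *cfp-1* against *sin-3* and 4 in *set-2* against *sin-3*. At an adjusted p under 0.01 the first 4 counts were 0, 1, 0 and 1. In *sin-3* against WT the count was 2 with DESeq2, with a minimum of 10 counts in each library and with only the 2 strains compared. In *cfp-1* against WT the count was 4, with *hsp-4* added, under DESeq2, filterByExpr and no filter, and 2 with upper-quartile factors, where *hsp-60* was lost (adjusted p = 0.0643). In *set-2* against WT it was 3, without *hsp-4*, with upper-quartile factors, a minimum of 10 counts in each library or only the 2 strains. *hsp-3* in *sin-3* was lost with DESeq2's size factors in edgeR (adjusted p = 0.064), where *hsp-6* was called (0.0454). In *cfp-1* against *set-2* the count was 1 with upper-quartile factors, with only the 2 strains and with the replicate block. In *set-2* against *sin-3* it was 5 with DESeq2 and 3 with upper-quartile factors. The marker covariate (the difference between embryonic and oocyte markers) was chosen after seeing the data. With it the count was 0 in *cfp-1* against WT, *sin-3* against WT, *cfp-1* against *set-2* and *set-2* against *sin-3*. Of all 11547 genes tested, this covariate left 268 called in *cfp-1* against WT and 5 in *sin-3* against WT. The numbers for comparisons between mutants are not given. With a block by title number no member was called in any comparison. The block left 7 genes called in *cfp-1* against WT, 25 in *set-2* against WT and 0 in *sin-3* against WT. The log2 fold changes in *set-2* against WT were then -0.84 for *hsp-1*, -0.50 for *hsp-4*, -1.06 for *hsp-60* and -1.32 for *hsp-110*. WT and *sin-3* shared no title number, and *cfp-1* shared only number 2 with WT. What these numbers mark is not stated, so strain and title number cannot be fully told apart. With each library left out the counts ranged from 0 to 4, 1 to 6, 0 to 2, 1 to 3, 0 to 0 and 2 to 5 in the order above.

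Changes of sign were all in values that were not called. *hsp-6* in *cfp-1* against *sin-3* was -0.0087 with DESeq2, -0.0087 with its size factors, -0.0124 with TMM factors from all listed genes, and -0.032 to 0.065 with libraries left out. *hsp-3* in *cfp-1* against *sin-3* was 0.059 with upper-quartile factors, 0.018 with a minimum of 10 counts in each library, 0.0142 with no filter, 0.0146 with the replicate block, 0.14 with the title block and -0.10 to 0.048 with libraries left out. *hsp-110* in *sin-3* against WT was -0.50 with the title block, -0.53 with the marker covariate and -0.034 to 0.51 with libraries left out. *hsp-4* in *sin-3* against WT was 0.25 with the marker covariate, and *hsp-1* there ranged from -0.17 to 0.11 with libraries left out. With *hsp-3* and *hsp-4* summed, the value set beside *hsp-4* was -0.17 in *cfp-1* against *set-2* and 0.13 in *set-2* against *sin-3*. Where a count or sign moved, the cause was not tested.

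TMM factors from all listed genes were used first and replaced, after results were seen, by factors from the tested genes, the earlier processing of these data. They gave the same counts of members called, but in *cfp-1* against WT *hsp-4* (-0.39, adjusted p = 0.0293) was called and *hsp-6* (0.41, adjusted p = 0.0516) was not. Deviations of same-numbered libraries from their strain means correlated between -0.45 and 0.47, over 0.1 in 7 of 15 pairs. For the numbers in titles they correlated between -0.41 and 0.35, over 0.1 in 2 of 6. With 2 or 3 libraries per strain the deviations within a strain are tied to each other. These correlations therefore cannot tell whether libraries were paired. With 2 or 3 libraries per strain, changes near 1.4-fold lie close to the threshold.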
